A study of Mus musculus with 8 samples.

Results

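Mitotic spindle and checkpoint genes were followed in myeloid cells that had been cultured with or without recombinant trefoil factor 2 (rTFF2), a small secreted peptide of the trefoil family. The list held 48 genes that act from entry into mitosis to the separation of the daughter cells, chosen by their known roles in 5 groups: cyclins and kinases, the kinetochore and checkpoint, kinesins and the spindle, cytokinesis, and anaphase and chromosome structure. Of these, 45 were among the 12393 genes that had a probe set with a single gene symbol on the array, and Ccnb1, Cdca8 and Espl1 had none. The cells were CD11b+Gr-1+ cells, a mixed population of immature myeloid cells, sorted from the spleens of 4 male C57BL/6 mice, 16 weeks old, that were Tff2-/- throughout the body. The mice had drunk 3% dextran sodium sulfate (DSS), a colitis agent, for 5 days and then plain water, and were killed on day 14 later. Every mouse gave the cells of 2 parallel cultures, kept for 7 days. The first had GM-CSF (Csf2, 5 nM per the labels), a growth factor of myeloid cells, alone and served as the control, and the second had the same GM-CSF plus 3 µM mouse rTFF2. Controls therefore carried the Tff2 deletion, the DSS exposure and GM-CSF too, and no culture without GM-CSF and no wild-type culture was among the 8 arrays.

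Mitosis is driven by cyclin-dependent kinase 1 bound to cyclin A or B, which starts chromosome condensation and the building of a bipolar spindle. Kinetochores attach each chromosome to spindle microtubules, and the spindle assembly checkpoint holds back the anaphase-promoting complex (APC/C), a ubiquitin ligase, until all are attached. The complex then marks cyclin B and securin for destruction, separase cuts cohesin, and the central spindle directs the cleavage furrow. The mRNAs of many of these genes are made mainly in late G2 phase and mitosis, so their level in a bulk sample follows both the number of cycling cells and the amount of RNA per cell. Fewer cycling cells and less RNA of these genes per cell cannot be told apart in these arrays.

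Signals are log2 values, so a difference of 1 is a 2-fold change, and levels are compared between arrays of 1 gene and not between genes. Array medians lay between 4.09 and 4.12 in the controls and between 4.14 and 4.20 with rTFF2. Background was set at 3.23, the 95th percentile of the signals on all arrays of 45 genes known from unrelated tissues. The Tff2 probe set lay under it on all 8 arrays. Of the myeloid markers, 10 of 10 lay above background, 3 of them higher and 1 lower with rTFF2, and their summed level was 15.52 to 15.81 in the controls and 15.84 to 16.01 with rTFF2. Of 9 T and NK cell markers 2 lay above it (Cd8a and Cd28), while Cd3d, Cd3e and Cd3g were at background. Over all 9, 2 were lower and 0 higher with rTFF2, and the sum was 7.01 to 7.86 against 7.46 to 8.54. B cell markers stood above it in 2 of 8 (Ighm and Cd22), and erythroid markers in 1 of 7 (Slc4a1). Over all 8 B cell markers 1 was lower and 1 higher, and the sum was 6.70 to 7.01 against 6.90 to 7.23. Over all 7 erythroid markers 0 were lower and 1 higher, and the sum was 5.15 to 5.29 against 5.13 to 5.26. The Actb probe sets, whose 3′ minus 5′ signal rises with RNA degradation, differed by 0.53 ± 0.09 in the controls and 0.70 ± 0.05 with rTFF2 (SD, n = 4; exact two-sided permutation p = 0.0286, the smallest that 4 against 4 allows). The same measure of the Gapdh probe sets was 0.22 ± 0.07 in the controls and 0.26 ± 0.04 with rTFF2 (SD, n = 4; exact two-sided permutation p = 0.4). Results of a fit with the Actb difference as a covariate are given with each group of members. Actb values did not overlap between the groups, 0.42 to 0.62 in the controls and 0.66 to 0.74 with rTFF2. That fit therefore cannot tell rTFF2 and the Actb difference apart.

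Mitotic genes were lower after culture with rTFF2. Of the 45 measured, 39 fell (adjusted p under 0.05, limma over all probe sets), 0 rose and 6 did not pass. Among all 12393 genes 11.2% fell and 12.4% rose, and among the 7640 genes above background 15.4% fell and 19.3% rose. At an unadjusted p under 0.05 in limma 42 members were lower, beside 2291 of all 12393 genes. At that level 1 member, Pttg1, was higher, both with and without the mouse as a block. Of all 12393 genes 2201 were higher without the block and 2387 with it. The median difference over the 45 was -0.82, against -0.03 over all genes, and single genes ran from -1.35 (Racgap1) to 0.25 (Pttg1). A fall of over 2-fold was measured for 10 members, beside 258 of all 12393 genes. For 41 members all 4 rTFF2 arrays lay under all 4 control arrays, as for 13.8% of all genes. With arrays paired by title number, 42 members were lower with rTFF2 in all 4 mice at once, beside 3054 of all 12393 genes. With the mouse as a block, 40 members fell, against 13.3% of all genes. Centring each array on its median turned the balance of calls over all genes, from 52.4% of the calls higher to 41.9% higher. Under it 40 members fell, beside 14.4% of all genes. With the Actb 3′ to 5′ difference as a covariate 26 members fell, beside 5.58% of all genes, and the members' median was -1.01.

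**Figure D1:**
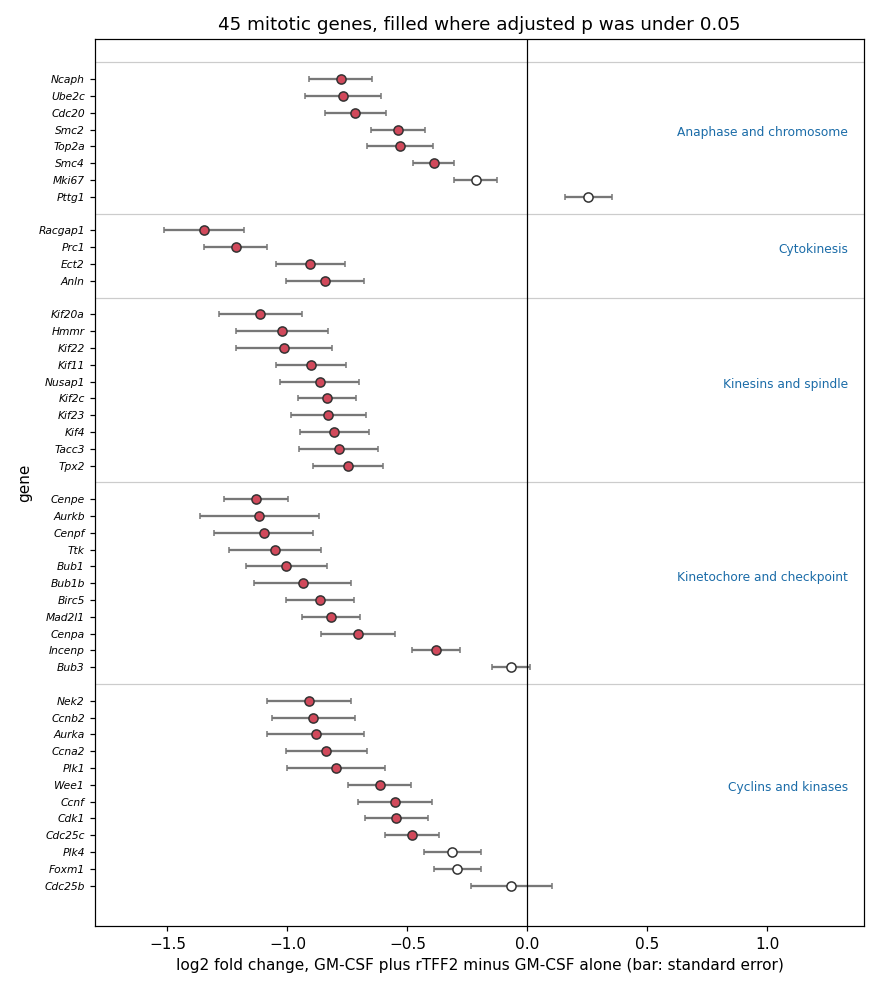
Log2 difference of rTFF2 minus GM-CSF alone (x axis) for each of the 45 measured members, by group, with bars for the standard error from limma (4 arrays per group) and open symbols for the 6 genes that did not pass. All but Pttg1, at 0.25, lie left of 0, and Racgap1 lies farthest left at -1.35.

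Promoters of many mitotic genes hold short shared motifs, the cell cycle genes homology region TTTGAA, bound by MuvB complexes that repress the genes outside G2 and mitosis, and CCAAT, bound by NF-Y. They were looked for because the members moved together. The members were chosen for their roles in mitosis, so a higher share than in all windows can come from that choice. The comparison was no test of rTFF2. RefSeq windows (GRCm38.p6) from 250 bases before to 50 after the transcription start were given for 36 of the 45 measured members, in 39 windows. TTTGAA, on either strand, stood in 71.8% of the 39 windows and in 17.9% of all 32851 windows, and CCAAT, also on either strand, in 76.9% and 37.4%. Both stood in 66.7% of the members' windows and in 6.95% of all windows. Among the windows of members that fell, 25 of 33 held TTTGAA, and among those of members that did not pass, 3 of 6 did. The 150 bases before the start are shown, with matches (or their reverse complements) in capitals and each sequence on its gene's strand, for Prc1 and Cdk1, which fell and hold both, Cenpe, which fell and holds CCAAT alone, Ncaph, which fell and holds neither, and Mki67 and Bub3, which did not pass and hold both.
Prc1 (chr7:80294326-80294475, + strand): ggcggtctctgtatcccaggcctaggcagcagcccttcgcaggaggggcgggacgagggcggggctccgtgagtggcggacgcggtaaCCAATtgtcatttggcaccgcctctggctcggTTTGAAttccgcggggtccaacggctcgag
Cdk1 (chr10:69352913-69353062, - strand): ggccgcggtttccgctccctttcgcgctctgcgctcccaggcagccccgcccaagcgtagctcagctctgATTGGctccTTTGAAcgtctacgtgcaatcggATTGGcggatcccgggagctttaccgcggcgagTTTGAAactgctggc
Cenpe (chr3:135212413-135212562, + strand): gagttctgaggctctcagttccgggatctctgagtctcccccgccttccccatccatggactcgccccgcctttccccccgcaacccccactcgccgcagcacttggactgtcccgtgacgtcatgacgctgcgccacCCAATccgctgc
Ncaph (chr2:127133955-127134104, - strand): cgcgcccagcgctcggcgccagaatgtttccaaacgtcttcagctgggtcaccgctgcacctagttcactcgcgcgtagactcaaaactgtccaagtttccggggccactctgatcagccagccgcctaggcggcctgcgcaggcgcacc
Mki67 (chr7:135716380-135716529, - strand): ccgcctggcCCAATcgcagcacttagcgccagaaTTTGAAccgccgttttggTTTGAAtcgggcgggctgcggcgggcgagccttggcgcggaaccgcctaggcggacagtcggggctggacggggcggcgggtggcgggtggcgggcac
Bub3 (chr7:131560220-131560369, + strand): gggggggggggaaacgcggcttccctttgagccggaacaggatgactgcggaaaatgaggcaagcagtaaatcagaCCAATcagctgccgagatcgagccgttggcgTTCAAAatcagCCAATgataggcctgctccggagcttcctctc
A match is a run of letters and not a measured binding site, and it was present in genes that fell and in genes that did not pass. Where a gene other than Cdk1 had several windows, the one with the most matches in these bases is shown.

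Cytokinesis genes fell in 4 of 4, with a median of -1.06, the lowest of the 5 groups. Racgap1, the GTPase-activating subunit of centralspindlin at the spindle midzone, had signals in mice 1 to 4 of 8.39, 8.51, 8.55 and 8.71 with GM-CSF alone and 6.69, 7.48, 7.13 and 7.47 with rTFF2. It fell by 1.35 on the log2 scale, or 2.55-fold (SE 0.17, adjusted p = 7.4e-04, limma). Prc1, which bundles antiparallel microtubules of the central spindle and whose promoter above holds both motifs, read 8.54, 8.45, 8.45 and 8.63 with GM-CSF alone and 6.93, 7.56, 7.25 and 7.48 with rTFF2. Its mean went from 8.52 ± 0.09 to 7.30 ± 0.28 (SD, n = 4), a fall of 2.32-fold (SE 0.13 on the log2 scale, adjusted p = 3.8e-04, limma). Ect2, the exchange factor that activates RhoA at the furrow, read 9.69, 9.87, 9.65 and 9.43 with GM-CSF alone and 8.37, 9.02, 8.87 and 8.76 with rTFF2 and changed by -0.90 (SE 0.14, adjusted p = 0.0025, limma). In all 3 genes the groups did not overlap, and the lowest array was the rTFF2 culture of mouse 1. Anln, anillin, a scaffold of the contractile ring, changed by -0.84 (SE 0.16, adjusted p = 0.0063, limma). Each of the 4 kept its call when any single array was left out. With the Actb covariate 3 did, all but Ect2 (log2 -0.88, adjusted p = 0.066, limma).

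Kinetochore and checkpoint genes fell in 10 of 11, with a median of -0.94. With the Actb covariate 7 fell, as Ttk (adjusted p = 0.15, limma), Aurkb (0.065) and Incenp (0.27) lost their calls. Differences of these genes in that fit were -0.85, -1.46 and -0.35. Cenpe, a kinesin at the kinetochore that carries chromosomes to the metaphase plate, read 9.04, 9.17, 8.82 and 8.96 with GM-CSF alone and 7.58, 8.15, 8.02 and 7.72 with rTFF2. That is a fall of 2.19-fold (log2 -1.13, SE 0.13, adjusted p = 5.5e-04, limma), and its highest rTFF2 array lay below its lowest control array. Mad2l1, the checkpoint protein that binds and restrains CDC20, read 10.84, 10.74, 10.81 and 10.71 with GM-CSF alone and 9.63, 10.26, 9.91 and 10.03 with rTFF2, with a change of -0.82 (SE 0.12, adjusted p = 0.0017, limma). Birc5, survivin, a subunit of the chromosomal passenger complex that corrects wrong attachments, read 10.75, 10.82, 10.82 and 10.78 with GM-CSF alone and 9.46, 10.18, 9.94 and 10.13 with rTFF2. Controls of both genes lay within a narrow range, and the rTFF2 arrays were spread more widely below them. Birc5 changed by -0.86 (SE 0.14, adjusted p = 0.0030, limma). Aurkb, the kinase of the same complex, changed by -1.12 (adjusted p = 0.012, limma), while Incenp, its scaffold, changed by -0.38 (adjusted p = 0.023, limma). Incenp was above 0.05 without control 1 or 3, without rTFF2 array 3, and without both arrays of mouse 1 or of mouse 2. Among the checkpoint kinases, the mean of Bub1 went from 10.29 ± 0.18 to 9.28 ± 0.35 (SD, n = 4; adjusted p = 0.0031, limma). Bub1b and Ttk changed by -0.94 and -1.05 (adjusted p = 0.010 and 0.0048, limma), and Bub1b reached 0.057 without both arrays of mouse 1. The histone H3 variant of centromeres, Cenpa, changed by -0.70 and the kinetochore protein Cenpf by -1.10 (adjusted p = 0.011 and 0.0053, limma). Bub3, the checkpoint partner of Bub1 and Bub1b, was the gene of this group that did not pass.

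Kinesins and spindle genes fell in 10 of 10, within a span of -1.11 to -0.75 and with a median of -0.85. Kif20a, a kinesin of the central spindle that recruits Polo-like kinase 1, read 8.96, 8.91, 9.19 and 9.28 with GM-CSF alone and 7.49, 8.17, 7.88 and 8.33 with rTFF2, a fall of 2.16-fold (log2 -1.11, SE 0.17, adjusted p = 0.0023, limma). Kif2c, which takes microtubules apart at centromeres, read 9.04, 8.86, 9.01 and 8.94 with GM-CSF alone and 7.80, 8.39, 8.22 and 8.08 with rTFF2, a change of -0.84 (SE 0.12, adjusted p = 0.0014, limma). Kif11, the motor that pushes the spindle poles apart, read 9.41, 9.66, 9.76 and 9.46 with GM-CSF alone and 8.30, 8.89, 8.56 and 8.92 with rTFF2, a change of -0.90 (SE 0.15, adjusted p = 0.0027, limma). The groups did not overlap in any of the 3, and mouse 1 again gave the lowest rTFF2 array. Hmmr and Kif22, a spindle pole protein and a motor that moves chromosome arms, changed by -1.02 and -1.01 (adjusted p = 0.0056 and 0.0069, limma). Nusap1 and Tpx2, which bind microtubules near chromosomes, changed by -0.87 and -0.75 (adjusted p = 0.0057 and 0.0064, limma). The motors Kif23, the partner of Racgap1 in centralspindlin, and Kif4 changed by -0.83 and -0.80, and the microtubule-binding Tacc3 by -0.79 (adjusted p = 0.0054, 0.0042 and 0.0086, limma). All 10 kept their calls when any single array was left out. With the Actb covariate 9 did, all but Kif23 (log2 -0.98, adjusted p = 0.056, limma).

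**Figure D2:**
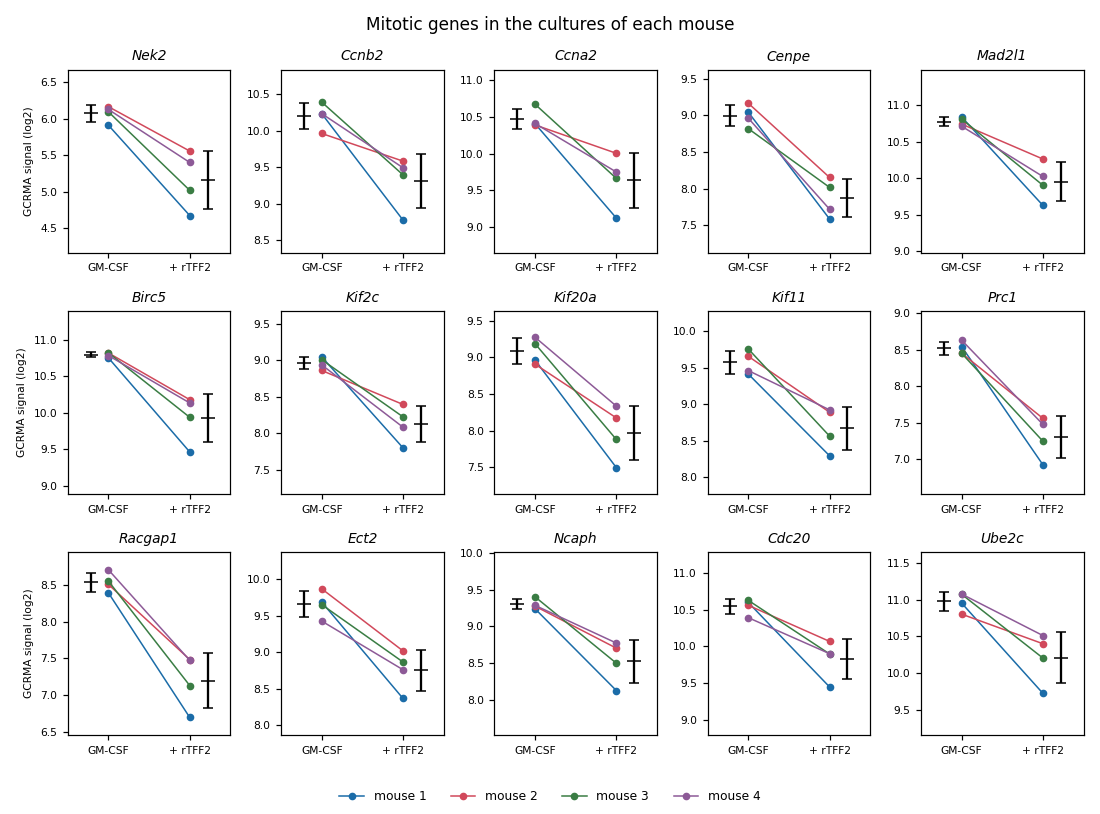
Log2 signal (y axis) on each of the 8 arrays for the 3 members of each group with the smallest adjusted p, with points joined within a mouse and black bars for the mean and SD of each group (n = 4). In all 15 genes the 4 rTFF2 arrays lie under the 4 control arrays, as with Prc1, from 8.45 to 8.63 with GM-CSF alone and from 6.93 to 7.56 with rTFF2.

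Cyclins and mitotic kinases fell in 9 of 12, with a smaller median of -0.58. With the Actb covariate 4 fell, as Cdk1 (adjusted p = 0.065, limma), Nek2 (0.061), Aurka (0.0501), Plk1 (0.0505) and Ccnf (0.31) lost their calls. Differences of these genes in that fit were -0.76, -1.07, -1.23, -1.20 and -0.49. Nek2, a kinase that separates the centrosomes, read 5.91, 6.16, 6.09 and 6.13 with GM-CSF alone and 4.68, 5.56, 5.02 and 5.40 with rTFF2, a change of -0.91 (SE 0.17, adjusted p = 0.0059, limma). Ccnb2, cyclin B2, a partner of CDK1 in mitosis, read 10.23, 9.96, 10.39 and 10.23 with GM-CSF alone and 8.78, 9.58, 9.40 and 9.49 with rTFF2, a change of -0.89 (SE 0.17, adjusted p = 0.0061, limma). Ccna2, cyclin A2, which works in S phase and G2, read 10.41, 10.39, 10.67 and 10.41 with GM-CSF alone and 9.12, 10.00, 9.66 and 9.75 with rTFF2, a change of -0.84 (SE 0.17, adjusted p = 0.0074, limma). The rTFF2 array of mouse 2 came nearest to the controls in each of these genes. Cdk1 itself, the kinase that they lead into, read 10.23, 10.12, 10.35 and 10.46 with GM-CSF alone and 9.42, 9.80, 9.70 and 10.06 with rTFF2, a change of -0.55 (SE 0.13, adjusted p = 0.018, limma), and was above 0.05 without rTFF2 array 3 (0.052) and without both arrays of mouse 1 (0.075). The kinases Aurka, of the spindle poles, and Plk1, of most mitotic steps, changed by -0.88 and -0.80 (adjusted p = 0.014 and 0.022, limma). Plk1 was above 0.05 without control 1, 3 or 4 or rTFF2 array 3 (up to 0.057). Regulators of opposite action fell together here, since Wee1, which inhibits CDK1, changed by -0.62 and Cdc25c, a phosphatase that activates it, by -0.48 (adjusted p = 0.010 and 0.014, limma). Without both arrays of mouse 1 they reached 0.070 and 0.11. Ccnf, cyclin F, a ubiquitin ligase subunit, changed by -0.55 (adjusted p = 0.031, limma) and was the least stable call, at 0.056 to 0.086 when any one of the arrays other than rTFF2 array 4 was left out. Without both arrays of mouse 1, 5 genes of this group fell, and 10 did with the mouse as a block, beside 4.92% and 13.3% of all genes.

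Anaphase and chromosome genes fell in 6 of 8, with a median of -0.54 and a span from -0.78 to 0.25. With the Actb covariate 3 fell, as Smc2 (adjusted p = 0.11, limma), Smc4 (0.14) and Top2a (0.066) lost their calls. Differences of these genes in that fit were -0.59, -0.40 and -0.77. Ncaph, a condensin I subunit, read 9.24, 9.28, 9.41 and 9.29 with GM-CSF alone and 8.12, 8.70, 8.50 and 8.77 with rTFF2, a change of -0.78 (SE 0.13, adjusted p = 0.0034, limma). Cdc20, which switches on the APC/C, read 10.60, 10.56, 10.63 and 10.39 with GM-CSF alone and 9.45, 10.07, 9.90 and 9.90 with rTFF2, a change of -0.72 (SE 0.13, adjusted p = 0.0042, limma). Ube2c, the ubiquitin-conjugating enzyme of that complex, read 10.96, 10.80, 11.08 and 11.08 with GM-CSF alone and 9.72, 10.40, 10.20 and 10.51 with rTFF2, a change of -0.77 (SE 0.16, adjusted p = 0.0085, limma). In none of these genes did the groups overlap. Smaller changes were measured for the condensin ATPases Smc2, -0.54, and Smc4, -0.39 (adjusted p = 0.0085 and 0.010, limma). Top2a, the topoisomerase that untangles sister chromatids, changed by -0.53 (adjusted p = 0.024, limma) and was above 0.05 without control 1, 3 or 4 or rTFF2 array 3, at up to 0.060. Pttg1 and Mki67 did not pass.

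The 6 members that did not pass differed among themselves. Pttg1, securin, the inhibitor of separase, read 10.12, 10.03, 10.34 and 10.19 with GM-CSF alone and 10.62, 10.39, 10.45 and 10.23 with rTFF2. It was higher with rTFF2 in each of the 4 mice, by 0.25 on average (SE 0.10, adjusted p = 0.10, limma), and the groups did not overlap except that rTFF2 of mouse 4 lay below control 3. Mki67, the Ki-67 protein that coats mitotic chromosomes and is widely used as a marker of proliferating cells, read 11.34, 11.46, 11.42 and 11.36 with GM-CSF alone and 10.93, 11.29, 11.22 and 11.27 with rTFF2. Its groups did not overlap, but the difference was small, -0.22 (SE 0.09, adjusted p = 0.12, limma; 0.086 with the mouse as a block). Foxm1, a transcription factor of G2 and mitosis genes that was near background here, read 3.63, 3.63, 3.64 and 3.74 with GM-CSF alone and 3.14, 3.45, 3.29 and 3.59 with rTFF2. Its groups did not overlap either, and the change of -0.29 (SE 0.10) missed the threshold without the block (adjusted p = 0.062, limma) and passed it with the mouse as a block (adjusted p = 0.040, limma). It also passed after median centring (0.026), after quantile normalization (0.035) and without rTFF2 array 4 (0.023). Plk4, the kinase of centriole duplication, read 9.64, 9.66, 9.57 and 9.54 with GM-CSF alone and 9.02, 9.58, 9.40 and 9.15 with rTFF2, a change of -0.31 (SE 0.12, adjusted p = 0.091, limma), and passed without rTFF2 array 2 (0.023) and without both arrays of mouse 2 (0.038). The rTFF2 array of mouse 2 lay among its controls. Bub3 read 11.39, 11.28, 11.36 and 11.16 with GM-CSF alone and 11.19, 11.35, 11.26 and 11.12 with rTFF2, and the difference of -0.07 (SE 0.08, adjusted p = 0.58, limma) was within the spread of the arrays. Cdc25b, another phosphatase that activates CDK1, read 5.57, 5.29, 5.91 and 5.80 with GM-CSF alone and 5.21, 5.63, 5.92 and 5.55 with rTFF2, also within that spread (-0.07, SE 0.17, adjusted p = 0.82, limma), and its sign turned without control 3 or rTFF2 array 1.

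**Figure D3:**
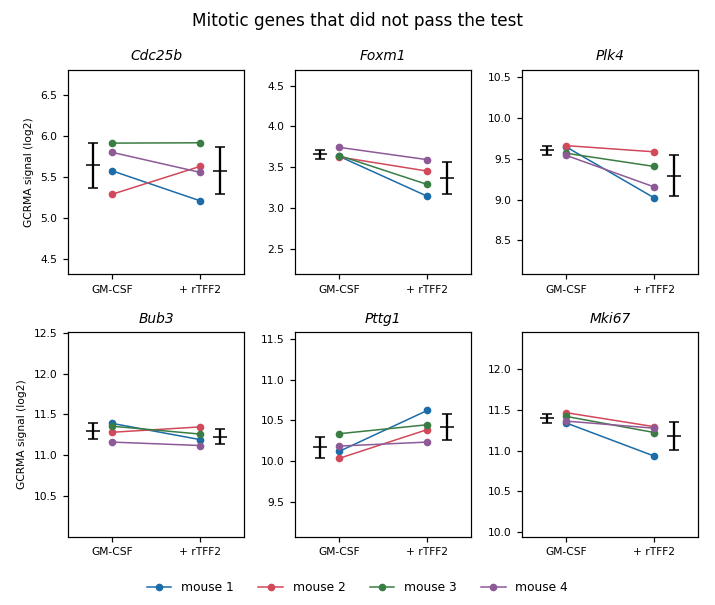
Log2 signal (y axis) on each of the 8 arrays for the 6 members that did not pass, with points joined within a mouse and black bars for the mean and SD of each group (n = 4). Pttg1 is higher with rTFF2 in 4 of 4 mice, Mki67 and Foxm1 are lower without overlap of the groups, and the arrays of Bub3 and Cdc25b overlap.

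With arrays paired by their title numbers, the size of the fall differed between the mice. The titles do not state this pairing, and the signals did not bear it out for mouse 1 and mouse 3. The median difference over the 45 members, rTFF2 minus GM-CSF alone within a mouse, was -1.23 in mouse 1, -0.47 in mouse 2, -0.87 in mouse 3 and -0.57 in mouse 4. The matching medians over all genes lay between -0.02 and -0.01. Members with a lower signal numbered 44, 42, 43 and 44 of 45 in mice 1 to 4, so that these pairs shared the direction and not the size. For the 41 members whose groups did not overlap, any pairing would give that direction. Mouse 1 had the largest fall for 42 of the 45 members, and mouse 2 the smallest for 31. The steepest single difference was that of Aurkb in mouse 1, -2.07. Among the rTFF2 arrays, that of mouse 1 was the lowest for 43 members, and the highest was that of mouse 2 for 23 and of mouse 4 for 20. Among the control arrays, the lowest was that of mouse 2 for 21 members, mouse 1 for 12, mouse 4 for 9 and mouse 3 for 3. The spread within a group was larger with rTFF2, with a median SD over members of 0.31 against 0.13 in the controls, and it was larger for 40 of 45 members against 37.9% of the genes above background. Without both arrays of mouse 1 the members' median was -0.68 and 33 of 45 fell, beside 4.92% of all genes.

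**Figure D4:**
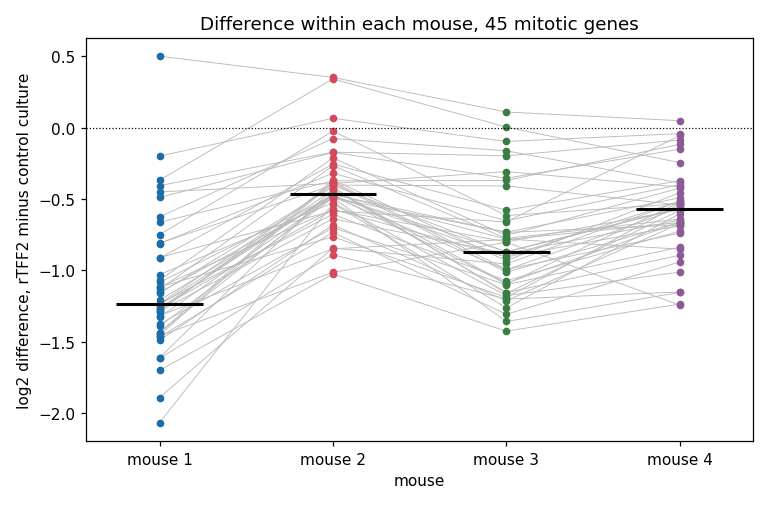
Log2 difference of rTFF2 minus GM-CSF alone within each mouse (y axis), with a point for each of the 45 members and a bar at their median. Arrays were paired by their title numbers. Medians are -1.23, -0.47, -0.87 and -0.57 in mice 1 to 4, and nearly all points lie under 0 in every mouse.

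Further probe sets gave a second reading of the same RNA for 24 members. The 45 members had 86 probe sets in all, and of the 41 not used above, 23 were lower, beside 10.1% of all probe sets. Of the 31 further sets above background, 21 were lower. All sets of a gene gave the same call for 18 of the 24 members. Incenp had a second set at -0.41 (adjusted p = 0.086, limma), Tacc3 one at -0.28 (0.076) and Smc4 one at -0.27 (0.056), each with the same sign. Kif2c, Kif23 and Top2a disagreed only in sets at background. Plk4, which did not pass, had further sets at -0.39 and -0.75 that did not pass either (adjusted p = 0.13 and 0.064, limma). The set at -0.75 passed with the mouse as a block (adjusted p = 0.023, limma).

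Of the other genes of mitosis, outside the 48, 35 of 77 measured fell and 2 rose, with a median of -0.38. Among all genes 11.2% fell and 12.4% rose. With the mouse as a block 40 fell and 2 rose, beside 13.3% and 14.5% of all genes. With the Actb covariate 19 fell, beside 5.58% of all genes, and 1 rose. Without rTFF2 array 3, and also without both arrays of mouse 1, 23 fell, beside 7.65% and 4.92% of all genes. The largest falls were those of Melk, a kinase expressed in mitosis, -1.24 (adjusted p = 4.6e-04, limma), and Cep55, a midbody protein of abscission, -1.23 (adjusted p = 9.3e-04, limma). Spag5 and Aspm, which work at spindle poles, followed at -1.15 and -1.11 (adjusted p = 0.0050 and 0.0026, limma). Motors and other spindle genes fell in 12 of 18, with a median of -0.70, and genes of the inner and outer kinetochore in 13 of 22, with a median of -0.59. Kinases and regulators of entry and exit fell in 4 of 10, with a median of -0.40. These were Melk, Pbk at -0.81, Mastl, the Greatwall kinase, at -0.89, and Cks2, a CDK-binding protein, at -0.33 (adjusted p = 0.013, 0.0072 and 0.029 for the last 3, limma). Cks2 was above 0.05 without control 1, 2 or 4 or rTFF2 array 1 or 3, at up to 0.081, and with the Actb covariate (0.36).

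Of 13 cohesin and condensin genes 5 were lower and 2 higher, beside 11.2% of all genes lower and 12.4% higher, so that the count of higher genes was near the background. The condensin subunits Ncapg, Ncapg2 and Ncaph2 changed by -0.66, -0.47 and -0.47 (adjusted p = 0.0071, 0.020 and 0.020, limma), and sororin, Cdca5, which holds cohesin on sister chromatids, by -0.95 (adjusted p = 0.0081, limma). Ncapg2 was above 0.05 without control 1 or rTFF2 array 3 (up to 0.058) and with the Actb covariate (0.23), and Ncaph2 without control 4 or rTFF2 array 1 or 3 (up to 0.062). Among cohesin genes, Rad21, the subunit that separase cuts, changed by -0.24 (adjusted p = 0.046, limma), a call that was lost, at up to 0.12, without any one of the arrays other than rTFF2 array 2, and with the Actb covariate (0.62). Stag2, a cohesin subunit used throughout the cell cycle, read 10.22, 10.23, 10.26 and 10.37 with GM-CSF alone and 10.61, 10.60, 10.62 and 10.52 with rTFF2, and rose by 0.32 (adjusted p = 0.0071, limma), and did not pass with the Actb covariate (0.22) or without both arrays of mouse 1 (0.068). Nipbl, the cohesin loader, had means of 7.48 ± 0.16 with GM-CSF alone and 7.90 ± 0.23 with rTFF2 (SD, n = 4), a change of 0.43 (adjusted p = 0.039, limma), which passed only without control 2 or 3 or rTFF2 array 4 when single arrays were left out and did not pass after median centring (0.071) or with the Actb covariate (0.31). Both were higher in 4 of 4 mice. Subunits and partners of the APC/C had the median nearest to 0, -0.07, and 1 of 14 was lower, a share near the 11.2% of all genes. It was Cdca3, a trigger of mitotic entry, at -0.92 (adjusted p = 0.0038, limma).

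**Figure D5:**
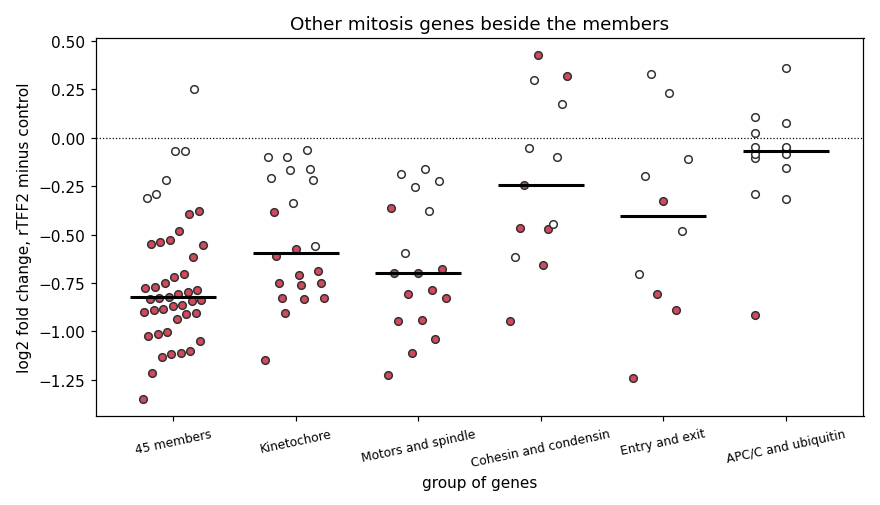
Log2 difference of rTFF2 minus GM-CSF alone (y axis) for the 45 members and for the 77 other mitosis genes by list (x axis), with a bar at each median, filled symbols for genes that passed in limma and open symbols for the others. Motors and spindle genes centre on -0.70, and the APC/C and ubiquitin genes centre on -0.07.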

How the data were processed

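RNA of 8 cultures, 4 controls and 4 that also received rTFF2, was hybridised to 1 mouse array each. The authors deposited log2 signals per probe set, made with GCRMA 2.30.0 and affy 1.36.0 according to the submitters' processing notes, which correct background and normalize the arrays together. Of 22690 probe sets, 64 controls were left out and 22626 were tested, of which 20380 carried 1 gene symbol, 691 several and 1555 none, and each of 12393 genes was read from its probe set with the highest mean. The arrays' number limits the precision. Limma 3.58.1 in R 4.3.3 compared the groups without a block, as the methods name no block, and p-values were adjusted over all probe sets by the Benjamini-Hochberg method. Sample titles number the cultures 1 to 4 in each group, and the methods state that the sorted cells were divided. Equal numbers were therefore taken as the same mouse, which the titles do not state. Deviations of the paired arrays from their group means correlated at 0.05, 0.54, 0.32 and 0.39 in mice 1 to 4, over 13135 probe sets. Between control and rTFF2 arrays of different mice the correlations ran from -0.54 to 0.34. Those of mouse 1 and mouse 3 lay within that range, so the signals do not bear out the pairing for them. With the mouse as a block, 40 members were lower.

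Members and lists were chosen with earlier results of these data known. Named were the 3 members of each group with the smallest adjusted p, all that did not pass, up to 4 other mitosis genes with the largest change in each direction, and any of a direction counted 5 or fewer. Alternatives covered a dim probe set filter, centring, quantile normalization, an offset of 32, trend and robust fitting, the Actb covariate, means of probe sets, a threshold of 0.01 and left-out arrays or mice, and leaving out both arrays of mouse 1 was added after the data were seen. The code was tested on simulated data.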

Additional observations from a re-analysis of the deposited data

Results flagged for a closer look

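In 2 of the 90 gene and group sets of 4 arrays, 1 array stood apart from the other 3 by Dixon's criterion, and chance alone marks about 1 set in 20. Ccna2 read 10.67 in control 3 and 10.39 to 10.41 in the other controls. Foxm1 read 3.74 in control 4 and 3.63 to 3.64 in the other controls.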

How the results depend on the processing

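With the mouse as a replicate block 40 members were lower and 0 higher, and of the members' calls it changed Foxm1 alone. Under it 40 other mitosis genes were lower and 2 higher, beside 13.3% and 14.5% of all genes. Between 34 and 40 members were lower when 1 array was left out, beside 7.65% to 11.8% of all genes. The median over members ran from -0.91 to -0.67. The 10 kinesins and spindle genes and the 4 cytokinesis genes were lower in every such fit. With the Actb covariate 4 cyclins and kinases, 3 anaphase and chromosome genes and 19 other mitosis genes were lower, beside 5.58% of all genes. In that fit 1 other mitosis gene was higher, the members' median was -1.01, and the cause was not tested. At a threshold of 0.01, 27 members were lower, beside 5.15% of all genes. Among the lists 3 cyclins and kinases, 6 kinetochore genes and 17 other mitosis genes were lower, and 1 other mitosis gene was higher. Without both arrays of mouse 1, which leaves fewer samples, 5 cyclins and kinases and 23 other mitosis genes were lower and 0 were higher. Of all genes 4.92% were lower in that fit. Other mitosis genes lower numbered 23 to 35 when 1 array was left out, beside 7.65% to 11.8% of all genes. Those higher numbered 1 to 3, beside 1177 to 1590 of all 12393 genes. After median centring, quantile normalization, an offset of 32 or leaving out both arrays of mouse 2, 1 other mitosis gene was higher. The difference of Cdc25b, which did not pass, ran from -0.19 to 0.057 when 1 array was left out, above 0 without control 3 or rTFF2 array 1, and was 0.034 without both arrays of mouse 1, and that of Bub3 was 0.039 over the mean of its probe sets. With 4 mice, and with larger spread in the rTFF2 cultures, small differences such as that of Mki67 could not be separated from 0, and Foxm1, near background at 3.23, has a compressed range.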
